A study of Mus musculus with 6 samples.

Results

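The 26S proteasome is the protease complex that degrades proteins tagged with ubiquitin. Its genes were examined in gonads of male C57BL/6 mouse embryos at E13.5 (embryonic day), the stage at which the testis cords have formed. Of 16862 genes in the deposited table, 48 carried a gene symbol made of Psma, Psmb, Psmc, Psmd, Psme, Psmf or Psmg and a number, and these 48 were taken as the proteasome genes. The rule goes by symbol and uses no measured value. RNA sequencing libraries from 3 L/H-Pgds-/- gonads (knockout, libraries 5, 7 and 8) were compared with libraries from 3 wild-type gonads (libraries 1, 3 and 4). The knockout embryos lacked both prostaglandin D synthases, encoded by Ptgds (L-Pgds) and Hpgds (H-Pgds), and all 6 libraries came from the C57BL/6 strain. The labels give no Cre line, batch, pairing or treatment. They speak of 6 littermates without saying which libraries shared a litter, and 1 embryo per library was assumed. If a library was not 1 embryo, the p-values below measure only the spread between these samples.

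The barrel of the complex, the 20S core, has an outer ring of alpha subunits (Psma) at each end and inner rings of beta subunits (Psmb), of which Psmb5, Psmb6 and Psmb7 carry the proteolytic sites. The 19S regulatory particle caps the barrel. Its base holds the ATPases (Psmc), which unfold substrates, and its other subunits (Psmd) bind ubiquitin and remove it. Psme proteins are alternative caps, Psmf1 is known as an inhibitor of the core in vitro, and Psmg proteins are chaperones that help to build the core. In leukocytes and in cells exposed to interferon, Psmb8, Psmb9 and Psmb10 replace the catalytic subunits to form the immunoproteasome. Psmb11 is known from the thymus and Psma8 from male germ cells in meiosis.

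Values are the authors' upper-quartile normalised pseudo-counts, a signal scaled so that the upper quartile over genes was 1484 or 1485 in every library. The values summed to 21657342 to 21846849 in knockout and to 22881124 to 23734462 in wild type. The number of reads behind a value is unknown, so no counting error can be given. Ptgds stood at 15.2, 4.0 and 2.94 in knockout libraries 5, 7 and 8, against 6560, 8137 and 8712 in wild-type libraries 1, 3 and 4. Hpgds was higher in knockout, at 87.8, 87.3 and 104, against 45.0, 47.5 and 55.0 in wild type, and it is not known whether the reads fall on exons that the deletion spares. Summed values of the Sertoli cell markers Sox9, Amh and Dhh were 42398 to 66783 in knockout and 58164 to 79975 in wild type. Most of each sum was Amh, and 0 of the 3 passed the test. The log2 change, knockout minus wild type, was 0.24 for Sox9, -0.39 for Amh and -0.09 for Dhh. The ovary markers Foxl2, Wnt4 and Fst summed to 2120 to 2379 in knockout and 3534 to 4088 in wild type, nearly all of it Wnt4, which was lower in knockout, while Foxl2 and Fst overlapped between groups and did not pass. In such bulk samples, fewer cells of a type and less RNA per cell cannot be told apart.

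Most of the proteasome genes that passed the test were lower in knockout gonads, by modest amounts. With limma on log2(value + 1) across all genes tested and Benjamini-Hochberg adjustment at 0.05, 25 of the 47 proteasome genes tested were lower in knockout, 2 were higher (Psmd11 and Psme4) and 20 did not pass. Among all 15116 genes tested, 17.0% were lower and 17.3% were higher (34.3% in either direction), so the share lower among the proteasome genes was above that background and the share higher was below it. The log2 change, knockout minus wild type, was below 0 in 40 genes and above 0 in 7. Its median was -0.34, against -0.03 over all genes tested, and the single genes ranged from -0.83 to 0.36. Every knockout library lay below every wild-type library for 30 of the 47 genes, where 25.6% of all genes did so. Every knockout library lay above for 2 genes, where 24.7% of all genes did so. Psmb11 alone missed the filter of 10 in at least 3 libraries and was not tested.

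The change of a proteasome gene went with the base composition and length of its transcript, so the groups of subunits below are given with and without those trends. Over the 47 genes, the log2 change had a Pearson r of -0.81 (Spearman -0.87) with the GC content of the longest coding transcript and of 0.63 (0.58) with its log2 length. These points share the same 6 libraries. Over 14449 genes with an annotated transcript, r was -0.47 for GC content and 0.55 for length. Among proteasome genes at 50% GC or more, 20 of 23 were lower in knockout, against 5 of 24 under 50%. Among all genes the same split gave 2186 of 7668 and 343 of 6781. Among those with transcripts under 2 kb, 23 of 35 were lower, against 2 of 12 at 2 kb or more. Among all genes these were 1568 of 3605 and 961 of 10844. When each library's trends with transcript length and with GC content were taken out of its log2 values, 3 of the 47 were lower in knockout (Psma2, Psmd5 and Psmf1), where 6.64% of all genes were, and 0 were higher, where 6.07% of all genes were. None of these 3 was among the 25, and the median became -0.09, against -0.01 over all genes. The longest coding transcripts of Psma2, Psmd5 and Psmf1, used in this removal, run to 2911, 4397 and 3809 nt. Their longest coding sequences are 702, 1512 and 813 nt. With coding length in place of transcript length, a setting added after the data were seen, 12 were lower, where 5.83% of all genes were, and 0 were higher, where 6.58% of all genes were. Of these 12, 5 were among the 25, and the median was -0.22, against -0.02 over all genes. Psma2 and Psmd5 were lower in both. These removals are called the transcript-length removal and the coding-length removal below. Where no removal is mentioned below, values are as deposited.

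**Figure D1:**
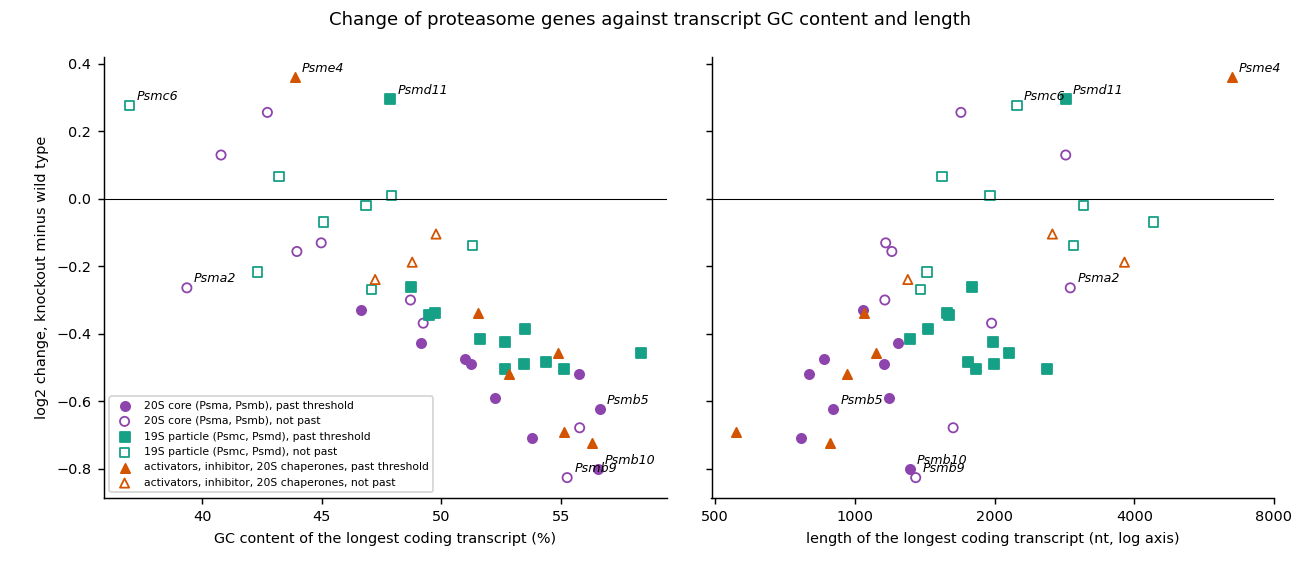
Log2 change (knockout minus wild type) of the 47 tested proteasome genes against GC content (left, %) and length (right, nt, log axis) of the longest coding transcript, filled where the adjusted p was under 0.05. Genes rich in GC lie lowest, with Psmb5 at -0.62 and Psmb10 at -0.80, and the long, AT-rich Psme4 lies highest at 0.36.

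The start regions of 3 genes are printed because the gene products are a proteolytic subunit (Psmb5 and Psmb6) or the highest gene of the set (Psme4), and because each holds the string TGACNNNGC, the core of the antioxidant response element. That element is bound by the Nrf family, which includes Nrf1 (gene Nfe2l1), known for raising proteasome genes when the proteasome is inhibited. Each runs 5′ to 3′ on the strand of the gene, from 250 bases before to 50 after the RefSeq start on GRCm38.p6, with the string in capitals. The regions are chr14:54617946-54618245 on the minus strand (Psmb5), chr11:70525107-70525406 on the plus strand (Psmb6) and chr11:30771525-30771824 on the plus strand (Psme4).
Psmb5: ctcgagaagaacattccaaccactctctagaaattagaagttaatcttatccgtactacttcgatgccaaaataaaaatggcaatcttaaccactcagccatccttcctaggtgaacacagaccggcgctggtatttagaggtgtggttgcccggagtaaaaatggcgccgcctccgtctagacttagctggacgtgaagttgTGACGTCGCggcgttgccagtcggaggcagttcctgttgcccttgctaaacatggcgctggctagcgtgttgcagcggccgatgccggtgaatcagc
Psmb6: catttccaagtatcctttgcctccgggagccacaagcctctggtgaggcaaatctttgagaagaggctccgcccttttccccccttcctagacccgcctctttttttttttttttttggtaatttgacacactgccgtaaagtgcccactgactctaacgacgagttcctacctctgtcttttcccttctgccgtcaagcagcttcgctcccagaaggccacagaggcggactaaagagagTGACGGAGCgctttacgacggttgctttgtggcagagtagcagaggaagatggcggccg
Psme4: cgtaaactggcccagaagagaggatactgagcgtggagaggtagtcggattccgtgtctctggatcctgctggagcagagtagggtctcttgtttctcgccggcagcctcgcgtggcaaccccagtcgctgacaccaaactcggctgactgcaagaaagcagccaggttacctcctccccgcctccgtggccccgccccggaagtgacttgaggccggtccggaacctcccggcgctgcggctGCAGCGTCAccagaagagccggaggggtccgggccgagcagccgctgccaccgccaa
In Psme4 the string reads in the reverse orientation. Its leftmost base stood at -47 in Psmb5, -9 in Psmb6 and -7 in Psme4, where -1 is the last of the 250 bases before the start. RefSeq start regions were found for 40 of the 48 genes, and 6 of these 40 held the string on either strand: Psmb5, Psmb6, Psmc6, Psmd9, Psmd12 and Psme4. Of these 6, Psmb5, Psmb6 and Psmd9 were lower in knockout and Psme4 was higher. Among all 40 genes with a start region, 21 were lower, a like share. Per start region, 14.0% of 43 proteasome regions held it, against 12.4% of 32851 regions of all genes. CCGGAAG, the core bound by Ets factors, was in 34.9% of proteasome regions and 8.86% of all regions, and GGGCGG, the box bound by Sp factors, in 55.8% and 35.7%. CCAAT was in 32.6% of proteasome regions and 37.4% of all regions. These 4 strings, searched on both strands, were kept after others had been searched as well, none is contained in another, and a match is not a measured binding site. Nfe2l1 itself was at 5936, 6023 and 6541 in knockout and 6148, 6230 and 6022 in wild type (log2 change 0.01, SE 0.08, limma adjusted p = 0.958).

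Levels between genes were compared per kilobase of the longest coding transcript. In knockout the constitutive beta subunits ran between 1766 per kb (Psmb3) and 11714 per kb (Psmb6), and in wild type between 2902 and 16853 for the same genes. The alpha subunits ran between 244 (Psma3) and 6728 (Psma6) per kb in knockout and between 223 and 8463 in wild type. The low Psma3 level is uncertain, because 3 annotated pseudogenes are at least 95% identical to its transcript over 300 bases or more and another gene overlaps it. The ATPases were more alike, at 1951 (Psmc6) to 4175 (Psmc5) per kb in knockout and 1600 (Psmc6) to 5569 (Psmc3) in wild type. The immunoproteasome subunits were far below, at 12.7 per kb for Psmb9, 18.1 for Psmb8 and 419 for Psmb10 in knockout, against 22.3, 29.1 and 736 in wild type. Psma8 was at 116 per kb in knockout and 96.2 in wild type. A per-kilobase level depends on which transcript is taken as the gene. The longest ones annotated for Psma2, Psma3, Psmd5 and Psmf1 run to 2911, 2846, 4397 and 3809 nt. The longest coding sequences of these genes, over all their coding transcripts, are 702, 765, 1512 and 813 nt.

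**Figure D2:**
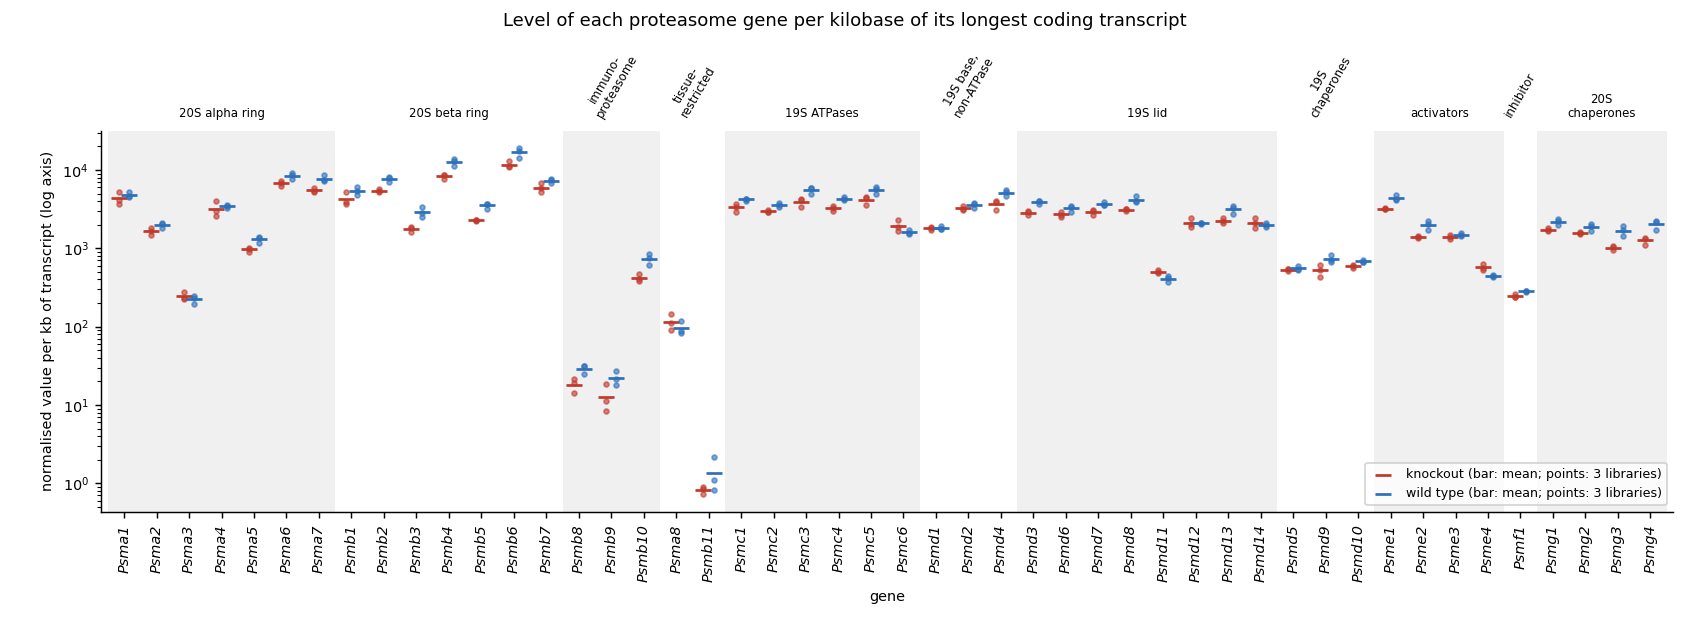
Normalised value per kb of the longest coding transcript (log axis) for the 48 proteasome genes, with points for the 3 knockout libraries (red) left of the 3 wild-type libraries (blue) and bars for means. The constitutive core and 19S genes lie mostly above 1000 per kb, and Psmb8, Psmb9 and Psmb11 lie lowest.

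In the beta ring all 7 constitutive subunits had a log2 change below 0, and 5 of 7 (Psmb2, Psmb3, Psmb4, Psmb5 and Psmb6) passed the test, with a median of -0.52. Psmb5, the chymotrypsin-like subunit (mm9, chr14:55232957-55236832), was at 2055, 2035 and 2071 in knockout libraries 5, 7 and 8, against 3314, 2868 and 3333 in wild-type libraries 1, 3 and 4. The 3 knockout libraries were nearly equal and lay below all wild-type libraries. Its knockout level was 0.649 times that of wild type on the log2(value + 1) scale (log2 change -0.62, SE 0.09, limma adjusted p = 0.00176). Psmb6, the caspase-like subunit, was at 8870, 10398 and 8775 in knockout and 13781, 11486 and 15078 in wild type. The groups did not overlap (log2 change -0.52, SE 0.12, limma adjusted p = 0.00843), although the call was lost narrowly under quantile normalisation, at an adjusted p of 0.0503. Psmb7, the trypsin-like subunit, was at 6791, 7878 and 6126 in knockout and 8787, 7942 and 8762 in wild type. Its libraries did not overlap either, but library 7 came close to wild type and the test was missed (log2 change -0.30, SE 0.11, limma adjusted p = 0.0501). It passed without library 7, at an adjusted p of 0.0124, with a stricter filter of 50 (0.0419) and with a robust prior (0.0438). It did not pass with any other library left out (0.051 to 0.155) or with equal totals (0.168). Nor did it pass under quantile normalisation (0.432) or without a mean-dependent prior (0.108).

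The structural beta subunits ranged from Psmb3 at a log2 change of -0.71 to Psmb1 at -0.37. Psmb1 did not pass (limma adjusted p = 0.0636), with its knockout library 7 at 10266 inside the wild-type range of 9556 to 11886. It passed in 2 of 6 fits that left out 1 library, without library 7 (0.00883) and without wild-type library 3 (0.0487). In the others its adjusted p reached 0.204. Psmb3 and Psmb5 have annotated near-identical pseudogenes, 3 and 1, with which their reads could be shared. The ring had a median of -0.03 after the transcript-length removal and no subunit passed. With the coding-length removal the median was -0.21 and Psmb4 passed, at -0.33.

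In the alpha ring 3 of 7 subunits (Psma5, Psma6 and Psma7) were lower in knockout, 0 were higher and the median was -0.26. Psma7 was at 6781, 6288 and 6039 in knockout, against 8682, 8261 and 9951 in wild type. All knockout libraries were below all wild-type libraries (log2 change -0.49, SE 0.10, limma adjusted p = 0.0046). Psma6 was lower by less (-0.33) and kept its call in 2 of 6 fits that each left out 1 library. Without knockout library 5 or 8, or wild-type library 1 or 4, its adjusted p was 0.0742, 0.0757, 0.0586 or 0.104, and its call was also lost with equal totals (0.0826), under quantile normalisation (0.264) and without a mean-dependent prior (0.0634). The 4 others, Psma1, Psma2, Psma3 and Psma4, overlapped between groups. Knockout library 7 held the highest of all 6 values for Psma4, at 4655, and the highest knockout value for Psma1, at 6251, and Psma2, at 5362. Without library 7, Psma2 and Psma4 passed as lower (adjusted p = 0.0298 and 0.0339). Each passed in only 1 of the 6 fits that left out 1 library. In the alpha ring the transcript-length removal left Psma2 as the only gene to pass, at a log2 change of -0.55, and with the coding-length removal Psma2, Psma5 and Psma6 passed, at -0.46, -0.28 and -0.29.

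The 3 immunoproteasome subunits had the lowest median of the groups, -0.80, though only Psmb10 passed. Psmb10 (mm9, chr8:108459628-108462292) was at 533, 505 and 611 in knockout and 978, 796 and 1119 in wild type. Its knockout level was 0.574 times that of wild type (log2 change -0.80, SE 0.14, limma adjusted p = 0.00265), with no overlap between groups. Psmb8 was at 30.6, 22.9 and 35.1 in knockout and 50.6, 40.5 and 51.1 in wild type. It did not overlap but missed the threshold (log2 change -0.68, SE 0.27, limma adjusted p = 0.0769), and passed without a mean-dependent prior (0.0387). Psmb8 passed in 0 of 6 fits that left out 1 library (adjusted p = 0.0742 to 0.21). Psmb9 was at 11.3, 24.8 and 15.4 in knockout and 24.2, 29.2 and 37.0 in wild type. Here library 7 exceeded the lowest wild-type library (log2 change -0.83, SE 0.36, limma adjusted p = 0.102). None of the 3 passed after the transcript-length removal, where Psmb10 was at -0.29, or after the coding-length removal, where it was at -0.37.

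Some leukocyte markers were lower too. Csf1r, Tyrobp and Lyz2 were lower in knockout among 6 such genes tested, 0 were higher, and Ptprc, Cd68 and Cd74 did not pass, where 17.0% of all genes were lower. After each of the 2 removals Csf1r alone was still called (-0.54 and -0.56), whereas Tyrobp (adjusted p = 0.498 and 0.385) and Lyz2 (0.0775 and 0.0773) were not. The log2 change was 0.08 for Ptprc, -0.37 for Cd68 and -0.68 for Cd74. The summed value of the 6 was 764 to 934 in knockout and 1165 to 1572 in wild type, so the groups did not overlap. Most of each sum was Csf1r, Lyz2 and Tyrobp, so the sum largely repeats their calls. Of 7 interferon response genes, 5 were tested with 0 called, Ifit1 and Ifit3 were under the filter, and the sum was 2058 to 2099 in knockout and 2061 to 2557 in wild type. The part of leukocytes in the immunoproteasome values was not tested.

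Each alternative subunit was also set against the constitutive subunit whose place it takes, per kb. Psmb10 was 6.94%, 5.68% and 8.83% of Psmb7 in knockout and 9.85%, 8.87% and 11.3% in wild type (means 7.15% ± 1.59 and 10.01% ± 1.22, SD, n = 3 each; exact permutation p = 0.1, adjusted over the 4 ratios 0.2). Psmb9 was 0.106% ± 0.0329 of Psmb6 in knockout and 0.133% ± 0.0253 in wild type (exact permutation p = 0.3, adjusted 0.4). Psmb8 was 0.793% ± 0.160 of Psmb5 in knockout and 0.823% ± 0.0375 in wild type (exact permutation p = 0.8, adjusted 0.8). These two-sided tests of 3 against 3 cannot give a p under 0.1, so no ratio could pass. No length or GC trend was taken out of the ratios. GC content was 56.5% for Psmb10 and 48.7% for Psmb7, and 42.7% for Psma8 and 51.3% for Psma7, the pair below. It was more alike within the other pairs.

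**Figure D3:**
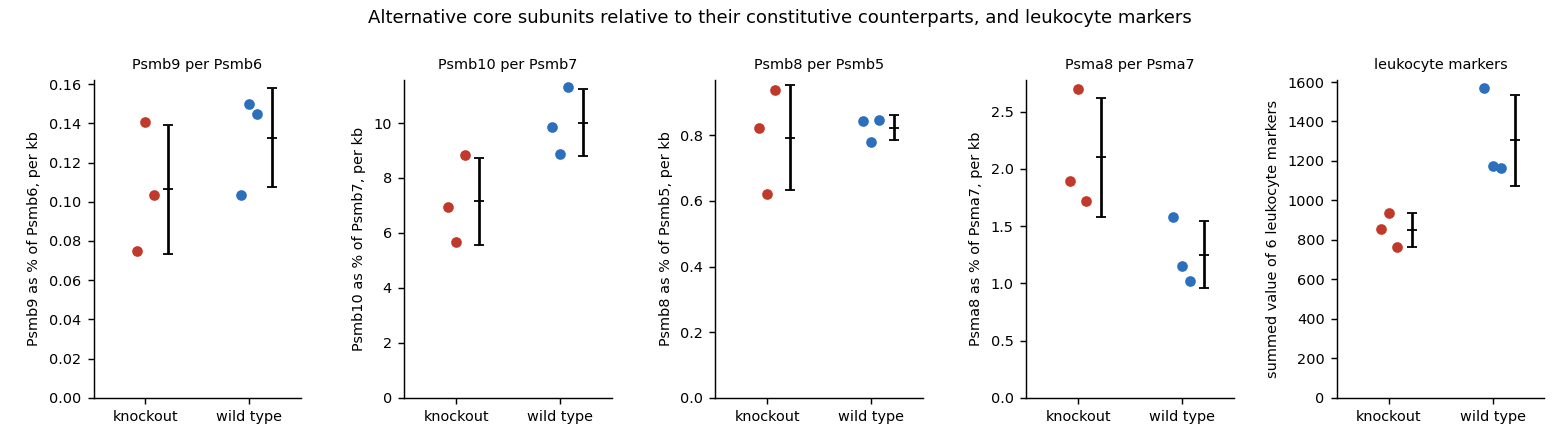
Each alternative core subunit as a percent of its constitutive counterpart per kb, and the summed value of 6 leukocyte markers, in knockout (red) and wild-type (blue) libraries, with mean and SD of 3 as black bars. Knockout lies below wild type without overlap for Psmb10 per Psmb7 and for the leukocyte sum, and above it for Psma8 per Psma7. Most of the leukocyte sum is Csf1r, Lyz2 and Tyrobp.

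Of the tissue-restricted subunits, Psma8 was at 188, 248 and 152 in knockout and 201, 139 and 149 in wild type. The groups overlapped and library 7 was highest (log2 change 0.26, SE 0.21, limma adjusted p = 0.378). As a share of Psma7 per kb it was 1.89%, 2.69% and 1.72% in knockout, against 1.58%, 1.15% and 1.02% in wild type (means 2.10% ± 0.519 and 1.25% ± 0.292, SD, n = 3 each; exact permutation p = 0.1, adjusted 0.2), and the lower Psma7 of the knockout enters this share. The germ cell markers Ddx4, Dazl and Nanos2 summed to 10815 to 20985 in knockout, with library 7 highest, and to 8518 to 12219 in wild type, and Ddx4 was called higher in knockout as deposited but not after either removal (adjusted p = 0.217 and 0.904). Dazl and Nanos2 did not pass, and Nanos2 had a log2 change of -1.01 with 1 wild-type library at 798. Of the meiotic markers, Stra8 fell under the filter, and Sycp3 was at 188, 385 and 140 in knockout and 372, 152 and 200 in wild type. The part of germ cells in the Psma8 values was not tested. Psmb11 was at 3.07, 3.65 and 3.80 in knockout and 3.53, 4.70 and 9.20 in wild type, under the filter of 10 in every library.

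In the 19S ATPase ring 5 of 6 genes were lower in knockout (Psmc1, Psmc2, Psmc3, Psmc4 and Psmc5), and Psmc6 had the opposite sign. Psmc3 was at 7763, 6182 and 7521 in knockout and 10756, 9076 and 10558 in wild type. Library 7 was the lowest of the 6, and the groups did not overlap (log2 change -0.50, SE 0.11, limma adjusted p = 0.00748). Psmc6 was at 4217, 5152 and 3709 in knockout and 3446, 3473 and 3803 in wild type. Library 7 was the highest of the 6 and library 8 lay inside the wild-type range (log2 change 0.27, SE 0.12, limma adjusted p = 0.0942). Psmc6 passed as higher without library 8 (adjusted p = 0.03), with equal totals (0.0293) and under quantile normalisation (0.0273). It did not pass in the other fits that left out 1 library (adjusted p up to 0.243). Psmc6 had the lowest GC content of the proteasome genes tested, 37.0%, and Psmc3 was at 55.1%. Psmc1, Psmc2 and Psmc5 were called in 4, 2 and 5 of the 6 fits that left out 1 library. Each lost its call without wild-type library 4 (adjusted p = 0.078, 0.089 and 0.0605) and under quantile normalisation (0.116, 0.259 and 0.066). Each also lost it without a mean-dependent prior (0.0617, 0.069 and 0.0552). Psmc1 and Psmc2 lost it without wild-type library 1 (0.0527 and 0.13) and with equal totals (0.0755 and 0.161) too. Psmc2 lost it as well without knockout library 5 (0.068) or 8 (0.0779). The 6 ATPases lay between -0.13 and 0.05 after the transcript-length removal and none passed. With the coding-length removal Psmc1 (-0.35) and Psmc2 (-0.32) passed, and Psmc6 was at -0.14.

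The other base subunits differed among themselves. Psmd4, a ubiquitin receptor, was at 7100, 5474 and 6895 in knockout and 9142, 8265 and 9677 in wild type. The groups were apart (log2 change -0.48, SE 0.11, limma adjusted p = 0.00999), with the call lost narrowly under quantile normalisation (0.0501). Psmd2, the large scaffold subunit that also binds ubiquitin-like domains, was at 9503, 9180 and 10244 in knockout and 11322, 9779 and 10765 in wild type. Library 8 lay within the wild-type range (log2 change -0.14, SE 0.09, limma adjusted p = 0.273), and the sign turned under quantile normalisation, to 0.05. Psmd1, the other large scaffold, had a log2 change of -0.02, whose sign turned with equal totals (0.08) and under quantile normalisation (0.11). After the coding-length removal Psmd1 (-0.42) and Psmd2 (-0.34) passed as lower, whereas Psmd4 (-0.22) did not, and after the transcript-length removal none of the 3 passed.

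In the lid 4 of 8 subunits were lower in knockout (Psmd3, Psmd7, Psmd8 and Psmd13), Psmd11 was higher, and Psmd6, Psmd12 and Psmd14 did not pass. The 4 lower ones had log2 changes of -0.34 to -0.49, and Psmd7 lost its call without wild-type library 4 (adjusted p = 0.071), with equal totals (0.0586) and under quantile normalisation (0.0837). Psmd14, the deubiquitinase that removes the ubiquitin chain before degradation, was at 3202, 3765 and 2771 in knockout and 3281, 2875 and 3092 in wild type. Its knockout libraries spanned the whole wild-type range (log2 change 0.07, SE 0.11, limma adjusted p = 0.682). Psmd11, a scaffold of the lid (mm9, chr11:80242117-80285635), was at 1376, 1517 and 1416 in knockout and 1056, 1263 and 1199 in wild type. Its groups did not overlap (log2 change 0.30, SE 0.10, limma adjusted p = 0.0387, and 0.0783 without a mean-dependent prior). The call held in 1 of 6 fits that left out a library, namely wild-type library 3. Leaving out knockout library 5, 7 or 8 gave an adjusted p of 0.0748, 0.0856 or 0.0705, and leaving out wild-type library 1 or 4 gave 0.145 or 0.0856. Psmd11 also has 1 annotated near-identical pseudogene. It was 0.24 after either removal of trends and did not pass (adjusted p = 0.086 with transcript length and 0.093 with coding length). Of the lid genes, Psmd6 alone passed after the coding-length removal, at -0.33.

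Of the 3 Psmd genes whose products are chaperones of the 19S particle and leave the finished complex, only Psmd9 was lower. It was at 1595, 1103 and 1370 in knockout and 1850, 1757 and 2122 in wild type, without overlap and with library 7 lowest (log2 change -0.51, SE 0.13, limma adjusted p = 0.016). Its call was lost when wild-type library 4 was left out (adjusted p = 0.0719) and without a mean-dependent prior (0.0585). Psmd10 (gankyrin) had a log2 change of -0.22 without passing (limma adjusted p = 0.0884). Psmd5 had a log2 change of -0.07, which turned to 0.03 with equal totals. Psmd5 passed as lower after both removals, at -0.40 (transcript length) and -0.30 (coding length), and Psmd10 after the coding-length removal (-0.32).

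Of the alternative caps, Psme1 and Psme2 were lower in knockout, Psme4 was higher and Psme3 did not pass. Psme1 and Psme2 form the PA28 alpha-beta ring, which opens the core and is known to be raised by interferon gamma. Psme1 was at 3613, 3507 and 3563 in knockout and 4775, 4537 and 5374 in wild type. Psme2 was at 1372, 1354 and 1303 in knockout and 1981, 1654 and 2174 in wild type. Both were lower in knockout without overlap. The log2 change of Psme1 was -0.46 (SE 0.09, limma adjusted p = 0.00409) and that of Psme2 was -0.52 (SE 0.11, limma adjusted p = 0.0055). Psme3, which forms the nuclear PA28 gamma ring, was at 3934, 3491 and 3676 in knockout and 4173, 3898 and 3859 in wild type. It did not pass (log2 change -0.10, SE 0.08, limma adjusted p = 0.356), and its sign turned under quantile normalisation, to 0.01.

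Psme4 encodes PA200, a single-chain cap known in mouse for its role in spermatogenesis (mm9, chr11:30671775-30780361). It was at 3616, 4125 and 3457 in knockout and 2820, 2915 and 2970 in wild type. All knockout libraries were above all wild-type libraries, at 1.28 times the wild-type level (log2 change 0.36, SE 0.09, limma adjusted p = 0.0122), and the call held in each fit that left out 1 library. Its transcript was the longest of the proteasome genes, at 6491 nt. The change was -0.13 after the transcript-length removal (adjusted p = 0.239), and -0.29 after the coding-length removal, where it passed as lower (0.0373). The direction of Psme4 therefore depends on the treatment of length and GC content. Psme1 and Psme2 did not pass after the transcript-length removal, at 0.06 and -0.03, or after the coding-length removal.

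Psmf1 was at 1000, 919 and 914 in knockout and 1058, 1091 and 1076 in wild type. The groups did not overlap but the difference was small and did not pass (log2 change -0.19, SE 0.09, limma adjusted p = 0.126). It passed at -0.35 after the transcript-length removal (adjusted p = 0.0164) and did not pass after the coding-length removal, at -0.09. Of the 4 chaperones of the core, Psmg1, Psmg3 and Psmg4 were lower in knockout and the 4 had a median of -0.51. Psmg1 lost its call without knockout library 8 (adjusted p = 0.053) or wild-type library 1 (0.0686) or 4 (0.0628). The same happened with equal totals (0.0695) and without a mean-dependent prior (0.0522). Psmg3 was at 937, 835 and 909 in knockout and 1518, 1251 and 1691 in wild type. The groups were well apart, at a knockout level 0.605 times that of wild type (log2 change -0.72, SE 0.12, limma adjusted p = 0.00234). Psmg2, which pairs with Psmg1, was at 2065, 2076 and 1998 in knockout and 2644, 2153 and 2474 in wild type. It did not overlap and did not pass (log2 change -0.24, SE 0.09, limma adjusted p = 0.0724). After either removal of trends none of the 4 passed.

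**Figure D4:**
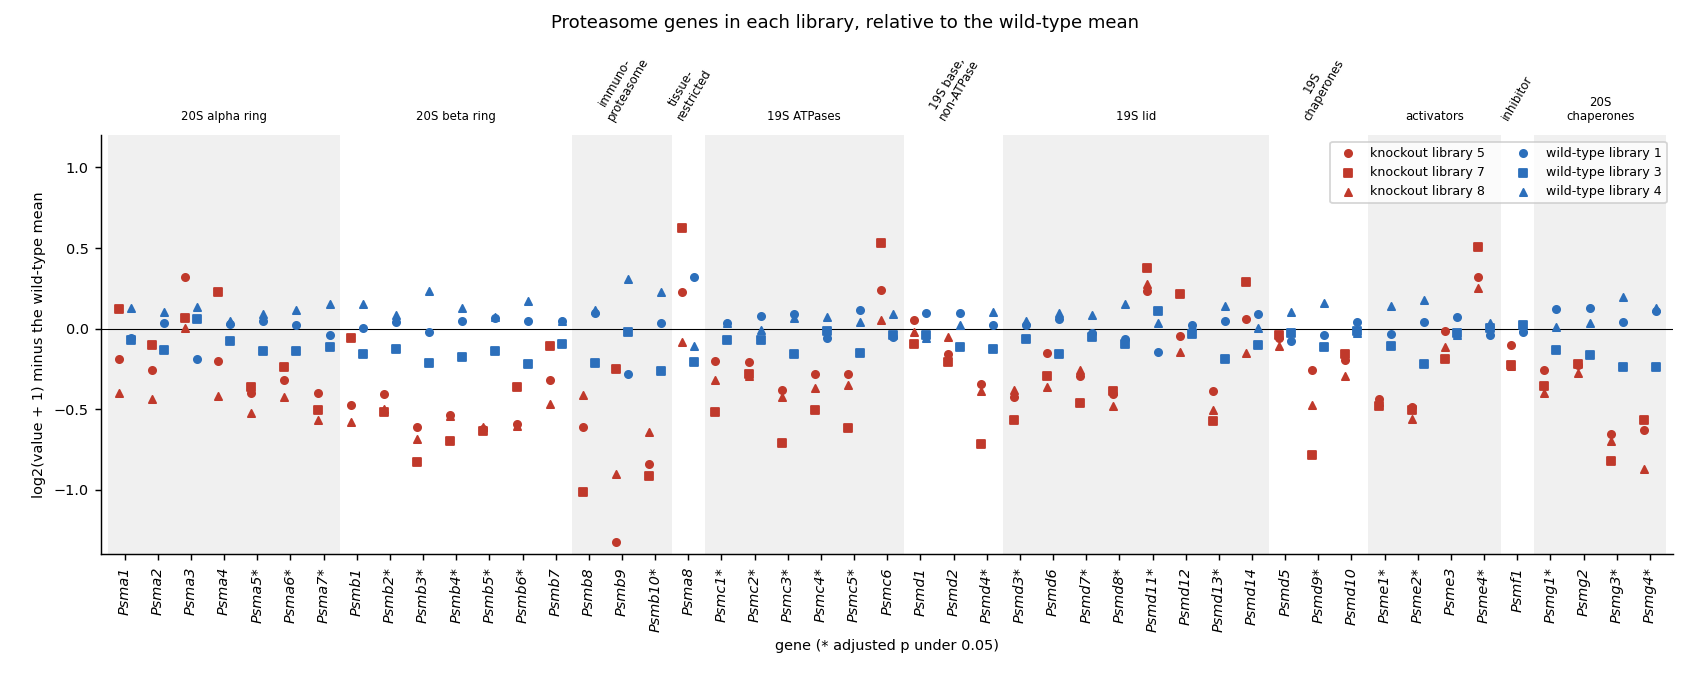
Log2(value + 1) of each tested proteasome gene in each knockout (red) and wild-type (blue) library minus the wild-type mean, with an asterisk where the adjusted p was under 0.05. Most red points lie below 0, and knockout library 7 (red squares) lies high for Psma8, Psmc6, Psmd14 and Psme4 and low for Psmc3, Psmd4 and Psmd9.

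The 3 knockout libraries gave much the same picture over the whole set but differed gene by gene. Their median deviation from the wild-type mean over the 47 tested genes was -0.28 in library 5, -0.36 in library 7 and -0.40 in library 8. The wild-type libraries were at 0.04 (library 1), -0.12 (library 3) and 0.09 (library 4). Core and regulatory particle were alike in count: 9 of 18 tested Psma and Psmb genes were lower in knockout and 0 higher, with a median of -0.45, and 11 of 20 Psmc and Psmd genes were lower and 1 higher, with a median of -0.30. Without the immunoproteasome and tissue-restricted subunits, 8 of 14 core genes were lower and 0 higher, with a median of -0.40. Without the 19S chaperones, 10 of 17 genes were lower and 1 higher, with a median of -0.34. Among all genes tested, 17.0% were lower and 17.3% were higher. The difference between the particles was not tested. The medians were -0.11 for the core and -0.09 for the 19S genes after the transcript-length removal, with 1 of 18 and 1 of 20 lower. These counts are near the 6.64% of all genes that were lower there. After the coding-length removal the medians were -0.24 and -0.25, with 4 of 18 and 7 of 20 lower. Both counts are above the 5.83% of all genes that were lower there.

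**Figure D5:**
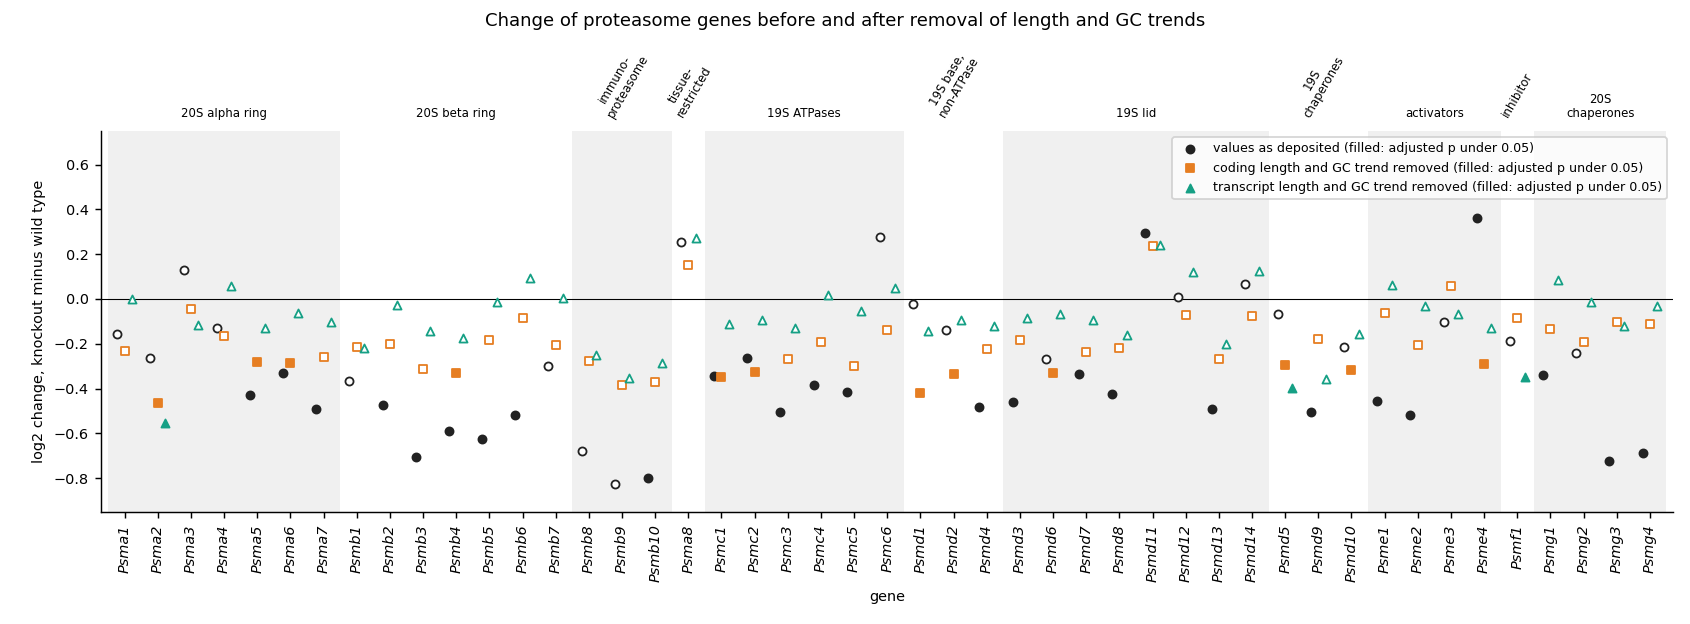
Log2 change (knockout minus wild type) of each tested proteasome gene as deposited (black circles) and after removal of trends on GC content with coding length (orange squares) or transcript length (green triangles), filled where the adjusted p was under 0.05. Beta ring and Psmg genes lie closer to 0 with transcript length removed, and Psme4 changes sign.

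Of 29 measured genes that work with the proteasome and lie outside the symbol rule, 6 were lower in knockout, 6 were higher and 17 did not pass, with a median log2 change of 0.01. These counts, as deposited, are near the shares of all genes, 17.0% lower and 17.3% higher. After the transcript-length removal 6 were lower and 2 higher, where 6.64% and 6.07% of all genes were, and the median was -0.05. After the coding-length removal 5 were lower and 3 higher, where 5.83% and 6.58% of all genes were, and the median was -0.06. The share lower among these genes was thus above that of all genes after each removal. Pomp, the chaperone that assembles the beta rings, was at 4224, 4660 and 3974 in knockout and 5915, 5821 and 6721 in wild type. Its groups were far apart (log2 change -0.52, SE 0.10, limma adjusted p = 0.00335), and it passed after both removals, at -0.67 (transcript length) and -0.24 (coding length). The longest coding transcript of Pomp is 3850 nt and its longest coding sequence 423 nt, so the 2 removals treat it as very different in length. Adrm1, a ubiquitin receptor of the 19S base, was at 901, 685 and 820 in knockout and 1123, 997 and 1072 in wild type (log2 change -0.42, SE 0.12, limma adjusted p = 0.0204). Its call was lost without wild-type library 4 (adjusted p = 0.0677), with equal totals (0.0595) and without a mean-dependent prior (0.0541). The call was also lost after both removals, at 0.11 (transcript length) and -0.005 (coding length). Shfm1, a small lid subunit, and Vcp, the segregase that hands over substrates, were lower as deposited (-0.43 and -0.23) and after the transcript-length removal (-0.49 and -0.29). Both were also lower after the coding-length removal (-0.40 and -0.45). As deposited, Vcp lost its call when any 1 library was left out and Shfm1 without knockout library 5 or 8 or wild-type library 1 or 4, and both lost it with equal totals and under quantile normalisation.

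Ubb, a stress-inducible polyubiquitin gene, was lower. It was at 7595, 7757 and 7053 in knockout and 11078, 10112 and 11390 in wild type (log2 change -0.54, SE 0.09, limma adjusted p = 0.00242). It did not pass after the transcript-length removal (-0.13) or the coding-length removal (-0.23), and 1 near-identical pseudogene is annotated. The ubiquitin fusion gene Rps27a did not pass and has 8 near-identical pseudogenes. Higher in knockout were Uba6, an alternative ubiquitin-activating enzyme (log2 change 0.99), Zfand5, known to activate the 26S proteasome (0.47), AI314180, which encodes the adaptor Ecm29 (0.45), Ubqln2, a shuttle for ubiquitin-tagged proteins (0.42), Ube3c, a ligase bound to the proteasome (0.27), and Ddi2. The call of Ube3c was lost when knockout library 5 or 7 or wild-type library 1 or 4 was left out (adjusted p = 0.123, 0.0653, 0.0576 and 0.154). Ddi2, the protease that cleaves and activates Nrf1, was at 139, 141 and 195 in knockout and 37.5, 66.8 and 74.9 in wild type. It had the largest change of the list, 2.70 times the wild-type level (log2 change 1.43, SE 0.27, limma adjusted p = 0.00398), and passed after both removals (1.01 and 1.28). Ubqln2 did so too (0.38 and 0.31), while Uba6 did not (0.34 and 0.23). The sign turned after both removals for AI314180 (-0.05 and -0.19) and Ube3c (-0.06 and -0.16), none of which passed, and for Zfand5 after the transcript-length removal (-0.15), whereas it passed as higher after the coding-length removal (0.31). The ubiquitin-activating enzyme Uba1 had a log2 change of -0.02 without passing.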

How the data were processed

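RNA from gonads of 3 knockout and 3 wild-type embryos was sequenced on an Illumina HiSeq2000 from TruSeq RNA libraries, per the labels and the series text; that kit does not mark strand, so reads of overlapping genes (Psma3 and Psmd1 here) may not be told apart. The deposited file holds a signal, the authors' upper-quartile normalised pseudo-counts, per the file headers. The submitters' processing notes list CASAVA 1.8.2, edgeR 2.6.2 and mm9 with no role; the aligner is not given in the sources used here, nor is the annotation. Values are fractional and not reads, depth is unknown, and no counting interval was possible.

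Genes that reached 10 in 3 or more libraries (15116 of 16862) were tested with limma 3.58.1 in R 4.3.3 (mean-dependent prior, two-sided) on log2(value + 1), with Benjamini-Hochberg adjustment over all of them at 0.05. Folds are on that scale and understate changes of low genes. The fit was tested on simulated data with planted changes larger than those of the proteasome genes and with no length or GC trend. That test therefore does not bear on calls of the size seen here. No covariate was used. Transcript length and GC content came from the longest coding transcript of GENCODE vM21. Coding length was the longest coding sequence among all coding transcripts of the gene, which need not be the same transcript. These were available for 95.6% of tested genes. Trends were removed per library by natural splines of 4 degrees of freedom each. Near-identical copies were sought by blastn among annotated pseudogenes, and 8 of the 48 genes had one (Psma3, Psma4, Psma5, Psmb3, Psmb5, Psmc1, Psmd2 and Psmd11). Start regions came from RefSeq (GRCm38.p6); table coordinates are mm9.

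Values per library are given for the catalytic, alternative and tissue-restricted core subunits, the activators and inhibitor, Psmd2, Psmd4 and Psmd14, and the highest and lowest change of each symbol class, and for Pomp, Adrm1, Nfe2l1, Ubb and the partner with the highest change, where some genes of the lists are not reported here; other named values were chosen after they were seen. Members and gene lists were chosen with earlier results of these data known. The 19 alternatives covered pseudocount, filter, scaling, prior, threshold, length and GC trends and each library left out.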

Additional observations from a re-analysis of the deposited data

How the results depend on the processing

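As deposited, 25 proteasome genes were lower and 2 higher in knockout, 12 partner genes were called, and 5180 of all genes. Removal of transcript length and GC trends gave 3 lower, 0 higher and 1836 of all genes; coding length in its place gave 12, 0 and 1793; transcript length and GC trends removed with wild-type library 1 left out gave 3, 0 and 1764, with 7 partners. Without the mean-dependent prior 1 was higher and 20 lower. Leaving out 1 library at a time gave 18 to 29 lower, 1 to 2 higher, 8 to 11 partners and 3098 to 5038 of all genes (lowest without wild-type library 4); 18 of the 25 were called lower in each of these 6 fits. Equal totals moved the median of all genes to 0.07 and gave 20 lower and 3 higher, with a proteasome median of -0.24, which is -0.31 relative to all genes, as it is for the values as deposited. Quantile normalisation gave 18 lower and 3 higher (-0.23 relative to all genes). Pseudocounts of 0.5 and 10, the filter settings, median-of-ratios scaling, the robust prior and a threshold of 0.1 kept each count within 1.5 times.

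Signs turned as follows, and the cause was not tested. With transcript length and GC trends removed the log2 changes were Adrm1 0.11, Nfe2l1 -0.048, Psmb6 0.093, Psmb7 0.0023, Psme1 0.061, Psme4 -0.13, AI314180 -0.055, Psma3 -0.11, Psma4 0.060, Psmc4 0.017, Psmg1 0.084, Ube3c -0.057 and Zfand5 -0.15. With wild-type library 1 left out as well they were Adrm1 0.13, Nfe2l1 -0.034, Psmb6 0.083, Psmb7 0.0055, Psme1 0.017, Psme4 -0.13, Psmg2 0.036, AI314180 -0.033, Psma3 -0.20, Psma4 0.061, Psmg1 0.12, Ube3c -0.0083 and Zfand5 -0.13. With coding length they were Psmc6 -0.14, Psmd14 -0.077, Psme3 0.056, Psme4 -0.29, AI314180 -0.19, Psma3 -0.046, Psmd12 -0.071 and Ube3c -0.16. Equal totals gave Psmd1 0.081 and Psmd5 0.033, and quantile normalisation Psmd2 0.049, Psme3 0.010 and Psmd1 0.11. With 1 library left out at a time the sign turned in 5 genes, none of them called with all 6 libraries: Nfe2l1 -0.037 to 0.033, Psmd14 -0.047 to 0.17, Psma4 -0.31 to 0.012, Psmd1 -0.057 to 0.027 and Psmd12 -0.094 to 0.086.

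No paired analysis was possible because knockout and wild-type libraries share no replicate number. The depth is unknown, so the counting error of the low genes Psmb8, Psmb9 and Psmb11 cannot be given.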
